A study of Mus musculus with 9 samples.

Results

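Each olfactory sensory neuron of the mouse expresses a single odorant receptor gene, from a single allele, out of a very large family. The receptor genes lie in clusters along the chromosomes, and neighbours in a cluster are often recent duplicates of each other. Olfr1507 (also called MOR28) heads a cluster on chromosome 14 in which the H enhancer, a regulatory element beside Olfr1507, is known to act on the genes nearest to it, among them Olfr1508 (MOR10) and Olfr1509 (MOR83). The genes described here are 7 untagged relatives or neighbours of the receptors that were used to sort neurons. They are Olfr1508, Olfr1509, Olfr1510, Olfr1511 and Olfr1512 of the Olfr1507 cluster, Olfr151 (M71), the close paralogue of Olfr160 (M72), and Olfr74 (mOR-EV), a relative of Olfr73 (mOR-EG, a receptor for eugenol). They were chosen by position and by kinship, and are 7 of the 1408 genes with an Olfr symbol among 55291 genes in the tables.

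Polyadenylated RNA was sequenced from sorted mature olfactory sensory neurons of mice that carry Olfr1507-IRES-GFP, Olfr73-IRES-GFP or Olfr160-IRES-mCherry, with 3 libraries in each group and 9 in all. The tagged allele makes its fluorescent protein from the same messenger as the receptor, so cells high in GFP or mCherry and low in DAPI were taken as neurons that had chosen that receptor. The groups are called Olfr1507, Olfr73 and Olfr160 after the tagged allele, and no untagged or unsorted group is among them. Age, strain and sex are not in the labels. Nor is it stated that the libraries of a group are from different animals, and p-values therefore cover just the spread among these libraries, which may be technical. The design text speaks of duplicates, whereas 3 libraries per group were analysed here. Libraries held 17212807 to 36230606 expected counts.

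The 7 genes differ in how closely they resemble a tagged receptor. In their coding sequence, Olfr151 and Olfr160 were 96.76% identical, Olfr1508 and Olfr1507 93.01%, and Olfr74 and Olfr73 77.72%. Olfr1509, Olfr1510, Olfr1511 and Olfr1512 were 58.37% to 65.25% identical to Olfr1507. Within the cluster, Olfr1510 and Olfr1511 were 97.27% identical, differing at 26 of 954 aligned bases, and each was 73.8% identical to Olfr1512. The first 90 coding bases of Olfr1508, Olfr151 and Olfr74 and of their tagged relatives are shown because reads must be told apart by such differences. Sequences are from GENCODE M21 on mm10, 5′ to 3′ on the coding strand, which is the minus strand for all of them, and capitals mark the bases at which the pair differs.
Olfr1508 (chr14:52463918-52464007): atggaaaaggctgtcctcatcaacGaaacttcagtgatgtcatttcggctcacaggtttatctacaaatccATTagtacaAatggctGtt
Olfr1507: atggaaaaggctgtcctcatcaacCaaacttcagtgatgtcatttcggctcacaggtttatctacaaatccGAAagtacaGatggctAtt
Olfr151 (chr9:37730892-37730981): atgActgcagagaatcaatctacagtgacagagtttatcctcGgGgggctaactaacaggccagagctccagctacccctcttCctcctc
Olfr160 (chr9:37712188-37712277): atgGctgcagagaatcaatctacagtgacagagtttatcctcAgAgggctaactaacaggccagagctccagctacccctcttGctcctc
Olfr74 (chr2:87974574-87974663): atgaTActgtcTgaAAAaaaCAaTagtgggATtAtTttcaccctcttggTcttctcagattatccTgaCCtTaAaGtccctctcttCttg
Olfr73 (chr2:88035048-88035137): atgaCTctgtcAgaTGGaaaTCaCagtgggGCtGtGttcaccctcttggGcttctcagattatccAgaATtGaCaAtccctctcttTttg
The pair differed at 6 of these 90 bases for Olfr1508 and Olfr1507, at 4 for Olfr151 and Olfr160, and at 21 for Olfr74 and Olfr73.

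Identity bears on the counts because a read can be placed only where the copies differ. The longest run of coding sequence without a difference was 274 bases between Olfr1510 and Olfr1511, 177 bases between Olfr151 and Olfr160, 143 bases between Olfr1508 and Olfr1507, and 33 bases between Olfr74 and Olfr73. Over all annotated transcripts, 21.6% of the 75-base words of Olfr1510 and 29.5% of those of Olfr1511 occur in the other gene. The share was 21.2% for Olfr151, all with Olfr160, 6.57% for Olfr1512, all with the next gene of the cluster, Olfr1513, and 1.35% for Olfr1508, all with Olfr1507. Olfr1509 and Olfr74 shared no word of 50 bases or more with any other annotated gene. Read length is not stated in the sources used here. The run common to Olfr1510 and Olfr1511 is shown in capitals with 10 bases on either side, since a read that falls inside it cannot be assigned to either gene.
Olfr1510 (chr14:52410040-52410333): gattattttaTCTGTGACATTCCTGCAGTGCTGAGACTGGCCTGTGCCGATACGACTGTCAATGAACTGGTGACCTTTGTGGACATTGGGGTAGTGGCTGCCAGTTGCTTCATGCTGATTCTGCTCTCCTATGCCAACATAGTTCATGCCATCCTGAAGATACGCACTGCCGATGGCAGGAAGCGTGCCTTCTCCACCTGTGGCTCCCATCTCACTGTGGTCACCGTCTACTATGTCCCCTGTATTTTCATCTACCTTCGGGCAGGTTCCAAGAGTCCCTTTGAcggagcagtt
Olfr1511 (chr14:52389941-52390234): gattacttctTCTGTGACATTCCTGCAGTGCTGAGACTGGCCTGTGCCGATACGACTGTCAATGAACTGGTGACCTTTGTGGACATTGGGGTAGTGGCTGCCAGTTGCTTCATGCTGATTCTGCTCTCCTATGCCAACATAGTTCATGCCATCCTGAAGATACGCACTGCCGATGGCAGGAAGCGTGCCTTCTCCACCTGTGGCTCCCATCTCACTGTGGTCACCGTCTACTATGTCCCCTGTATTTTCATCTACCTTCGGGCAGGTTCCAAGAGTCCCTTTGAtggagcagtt

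The tagged receptors checked the labels, each being highest in its own sort in every library. Olfr1507 itself had 59512, 81313 and 55243 counts in the Olfr1507 libraries, 1315, 777 and 263 in the Olfr73 libraries, and 1264, 2121 and 1574 in the Olfr160 libraries. The groups also differed in their content of untagged receptor counts and of markers of other cells. Receptor genes other than the tagged 3, called untagged receptors below, took 0.0259% ± 0.0121 of all counts in Olfr1507 libraries, 0.265% ± 0.0919 in Olfr73 libraries and 0.808% ± 0.0931 in Olfr160 libraries (mean ± SD, n = 3 each). Of the marker lists, 6 sustentacular and gland markers summed to 220 to 561 CPM in Olfr1507, 2883 to 5331 CPM in Olfr73 and 18966 to 44185 CPM in Olfr160. None of them was at 0. Bpifb9b, 1 of the 6, overlapped between Olfr1507, at 506.2, 22.9 and 38.8 CPM, and Olfr73, at 1000.6, 479.6 and 352.2 CPM. It stood at 3811.8, 24522.0 and 6875.4 CPM in Olfr160. The 8 mature neuron markers summed to 80165 to 82690 CPM in Olfr1507, 51976 to 53501 CPM in Olfr73 and 29377 to 45894 CPM in Olfr160. The 3 respiratory markers summed to 46.8 to 150.3 CPM in Olfr1507, 1057 to 2411 CPM in Olfr73 and 5009.6 to 14009.5 CPM in Olfr160, none at 0. Of these, Foxj1 alone was highest in Olfr1507, at 23.9, 19.4 and 16.8 CPM. It stood at 13.2, 12.5 and 10.3 CPM in Olfr73 and at 8.61, 6.22 and 10.2 CPM in Olfr160. The 4 immune markers summed to 1.36 to 4.18 CPM in Olfr1507, 42.6 to 63.3 CPM in Olfr73 and 141.7 to 455.9 CPM in Olfr160. Of these 4, Csf1r was at 0 in every Olfr1507 library. The 4 immature neuron markers summed to 271.7 to 324.4 CPM in Olfr1507, 702 to 783 CPM in Olfr73 and 1138 to 1308 CPM in Olfr160. Of these, Gap43 was not lower in Olfr1507, at 79.9, 113.7 and 70.2 CPM, than in Olfr73, at 77.9, 41.2 and 65.4 CPM. The dorsal zone markers Nqo1 and Acsm4, which are of neurons in the upper part of the epithelium, summed to 4.09 to 14.2 CPM in Olfr1507, 2147 to 2657 CPM in Olfr73 and 870.2 to 1731 CPM in Olfr160, and the ventral zone markers Nrp2 and Ncam2 to 134.8 to 145.3 CPM in Olfr1507, 9.76 to 22.6 CPM in Olfr73 and 43.2 to 64.9 CPM in Olfr160. The groups did not overlap in the sum of either zone list. Taken singly, Nqo1 overlapped between Olfr73, at 914.2, 570.4 and 944.7 CPM, and Olfr160, at 448.3, 671.3 and 1070.0 CPM. Acsm4, Nrp2 and Ncam2 did not overlap between the groups. The part of these other cells and of the zones in the members' values was not tested. In bulk libraries such as these, fewer neurons that express a receptor and less of its RNA per neuron cannot be told apart.

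The 4 tested cluster genes next to Olfr1507 had their lowest means in the neurons sorted on Olfr1507. Olfr1508 through Olfr1511 passed the filter on low counts and were tested, each was lower in Olfr1507 than in Olfr160, and the difference was 19.7-fold for Olfr1508, 26.1-fold for Olfr1509, 20.9-fold for Olfr1510 and 60.1-fold for Olfr1511. Olfr1512, Olfr151 and Olfr74 were too low to be tested. Most other receptors were lower in Olfr1507 too: 4 of the 4 tested members were lower in Olfr1507 than in Olfr160, as were 77% of 684 other tested receptors, and 27.7% of all 16399 tested genes. These 4 passed the filter through the groups where they are high, so the count describes them and supports nothing further. Without the filter 4 of 6 members in the fit were called lower, beside 534 of 1120 other receptors and 4700 of 26347 genes. All tests across genes used edgeR's quasi-likelihood test with Benjamini-Hochberg adjustment, and normalised CPM are counts per unit of library size after TMM scaling (trimmed mean of M values).

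Olfr1508 (chr14:52458829-52467495) is the gene next to Olfr1507, with its 5′ end 28.25 kb away, and is the member most like it in sequence. It had 15, 22 and 39 counts in the Olfr1507 libraries, 143, 134 and 26 in the Olfr73 libraries, and 407, 835 and 420 in the Olfr160 libraries. All Olfr160 libraries lay above all others, whereas Olfr73 library 3 lay within the range of the Olfr1507 libraries. The means were 1.24 ± 0.814 normalised CPM in Olfr1507, 4.59 ± 2.93 in Olfr73 and 24.0 ± 8.45 in Olfr160 (SD, n = 3 each). Olfr1508 was lower in Olfr1507 than in Olfr160, with a log2 fold change of -4.30 (with an SE of 0.69, edgeR adjusted p = 0.00103), and lower in Olfr73 than in Olfr160 (-2.38 with an SE of 0.62, edgeR adjusted p = 0.0299). The second call was lost without Olfr160 library 1 or 2 (edgeR adjusted p = 0.0619 and 0.112). For Olfr1507 over Olfr73 the log2 fold change was -1.91 (with an SE of 0.65, edgeR adjusted p = 0.0461), a call that was lost without any 1 of 7 of the 9 libraries, with adjusted p up to 0.144, and with limma-voom (adjusted p = 0.17). Without Olfr1507 library 3, where Olfr1508 was highest of that group, the value was -4.96 against Olfr160 (edgeR adjusted p = 0.0022) and -2.57 against Olfr73 (edgeR adjusted p = 0.0333).

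Set against Olfr1507 itself, Olfr1508 was scarce where Olfr1507 had been selected and common elsewhere. Of the counts on the pair, Olfr1508 took 0.0387% in the Olfr1507 libraries (76 against 196068 counts, 95% Wilson interval 0.031% to 0.0485%), 11.4% in Olfr73 libraries and 25.1% in Olfr160 libraries. Per library this share was 0.0252%, 0.027% and 0.0705% in Olfr1507, 9.81%, 14.7% and 9.0% in Olfr73, and 24.4%, 28.2% and 21.1% in Olfr160 libraries, so the groups did not overlap. The sort on Olfr1507 fixes the low share in its own libraries. How many of the 76 counts are reads of Olfr1507 placed on its copy was not tested.

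Olfr1509 (chr14:52442990-52452574), a more distant receptor 52.76 kb from Olfr1507 and the only member of the cluster on the plus strand, had 0, 31 and 2 counts in the Olfr1507 libraries, 51, 41 and 30 in the Olfr73 libraries, and 180, 373 and 196 in the Olfr160 libraries. Library 2 held 31 of the 33 counts of Olfr1507, and the 3 groups did not overlap in normalised CPM. Olfr1509 was lower in Olfr1507 than in Olfr160 (log2 fold change -4.71 with an SE of 0.99, edgeR adjusted p = 0.00433), and without Olfr1507 library 2 this was -7.47 (edgeR adjusted p = 0.00046). The log2 fold change of Olfr1507 over Olfr73 was -2.17 (SE 0.92) and missed the threshold (edgeR adjusted p = 0.0955). Without Olfr1507 library 2 it was -4.93 and passed (edgeR adjusted p = 0.0046), and it also passed with DESeq2 (adjusted p = 0.0316). Olfr73 over Olfr160 gave -2.54 (with an SE of 0.89, edgeR adjusted p = 0.0774), which passed with DESeq2, with limma-voom and without Olfr1507 library 1 or 2.

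Olfr1510 (chr14:52409131-52414373) and Olfr1511 (chr14:52389794-52397379), 81.38 and 98.37 kb from Olfr1507, are the near-identical pair. Olfr1510 had 4, 2 and 7 counts in the Olfr1507 libraries, 68, 55.66 and 74.48 in the Olfr73 libraries, and 97.04, 88.61 and 123.6 in the Olfr160 libraries. The Olfr1507 libraries lay below all others, and Olfr73 below Olfr160 in normalised CPM. As a share of untagged receptor counts Olfr73 lay above Olfr160, at 0.0981%, 0.0863% and 0.229% against 0.0665%, 0.0449% and 0.085%. The Olfr1507 shares overlapped with both. Olfr1510 was lower in Olfr1507 than in Olfr160 (log2 fold change -4.38 with an SE of 0.62, edgeR adjusted p = 0.000517) and than in Olfr73 (-3.78 with an SE of 0.61, edgeR adjusted p = 0.00189). Without Olfr1507 library 3 these were -5.05 (edgeR adjusted p = 0.00107) and -4.45 (edgeR adjusted p = 0.00316). Between Olfr73 and Olfr160 it did not pass the test (-0.60 with an SE of 0.52, edgeR adjusted p = 0.446).

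Olfr1511 had 2, 3 and 0 counts in the Olfr1507 libraries, 13, 136.34 and 166.52 in the Olfr73 libraries, and 144.96, 120.39 and 51.4 in the Olfr160 libraries. Olfr73 library 1 stood at 0.572 normalised CPM, below the 6.36 and 7.77 of the other Olfr73 libraries, and the Olfr1507 libraries were lowest. Olfr1511 was lower in Olfr1507 than in Olfr160 (log2 fold change -5.91 with an SE of 1.14, edgeR adjusted p = 0.00278) and than in Olfr73 (-5.97 with an SE of 1.15, edgeR adjusted p = 0.00428). Both calls were lost with limma-voom (adjusted p = 0.0727 and 0.134). Olfr73 over Olfr160 was near 0 (0.06 with an SE of 0.85, edgeR adjusted p = 0.97).

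The counts of the pair were fractional singly and whole in sum. Only Olfr1510 and Olfr1511 among the 7 genes had fractional counts, in 5 of the 9 libraries, and in all 9 their sum was a whole number within 0.011 counts. The sum was 6, 5 and 7 counts in Olfr1507, 81, 192 and 241 in Olfr73, and 242, 209 and 175 in Olfr160, while the part given to Olfr1510 ranged from 29.0% to 84.0% among the Olfr73 libraries and from 40.1% to 70.6% among the Olfr160 libraries. The division between the copies is therefore less certain than the sum. Summed before the fit, a step added after seeing the data, the pair was lower in Olfr1507 than in Olfr160 (log2 fold change -5.01 with an SE of 0.55, edgeR adjusted p = 0.000132) and than in Olfr73 (-4.78 with an SE of 0.55, edgeR adjusted p = 0.000331), and Olfr73 over Olfr160 gave -0.23 (with an SE of 0.44, edgeR adjusted p = 0.752). Scaled by untagged receptor counts, the sum was -0.26 in Olfr1507 over Olfr160 (with an SE of 0.81, edgeR adjusted p = 0.775), -1.81 in Olfr1507 over Olfr73 (with an SE of 0.82, edgeR adjusted p = 0.0382) and 1.56 in Olfr73 over Olfr160 (with an SE of 0.75, edgeR adjusted p = 0.0603).

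**Figure D1:**
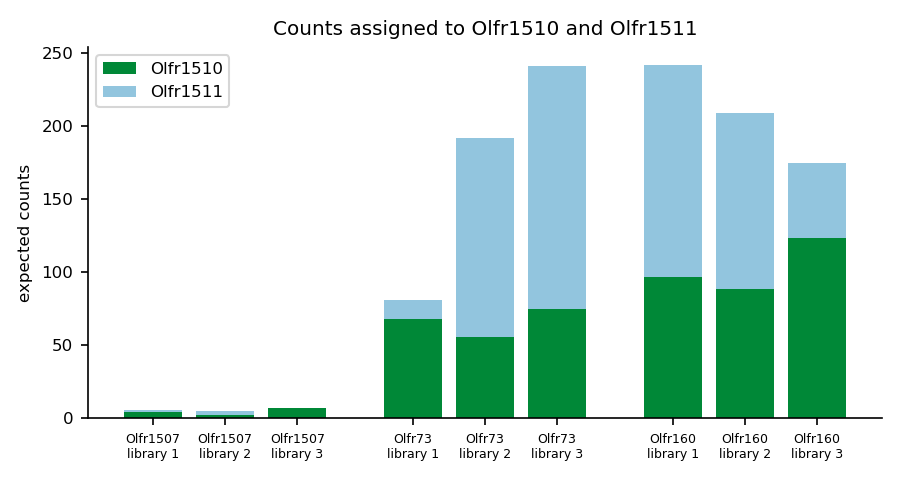
Stacked bars show the expected counts that the authors' quantification gave to Olfr1510 (dark) and Olfr1511 (light) in each library. The Olfr1507 libraries hold 5 to 7 counts in all, and the part given to Olfr1510 ranges from 40.1% to 70.6% among the Olfr160 libraries.

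Olfr1512 (chr14:52371332-52379168), 116.6 kb from Olfr1507, was the scarcest gene of the cluster. It had 0, 2 and 2 counts in the Olfr1507 libraries, 0 in every Olfr73 library, and 20, 22 and 3 in the Olfr160 libraries. With a floor of 3 counts over the whole group, it was at least 14.5-fold lower in Olfr73 than in Olfr160 per TMM-scaled library size, at least 15.5-fold lower per unscaled library size, and at least 5.1-fold lower per untagged receptor count. In normalised CPM all Olfr160 libraries lay above the Olfr1507 libraries. As a share of untagged receptor counts these 2 groups overlapped, with means of 0.0181% ± 0.0203 in Olfr1507 and 0.00897% ± 0.00612 in Olfr160. Olfr1507 library 3, at 0.112 normalised CPM, was close to Olfr160 library 3, at 0.133. Olfr1512 was not tested.

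**Figure D2:**
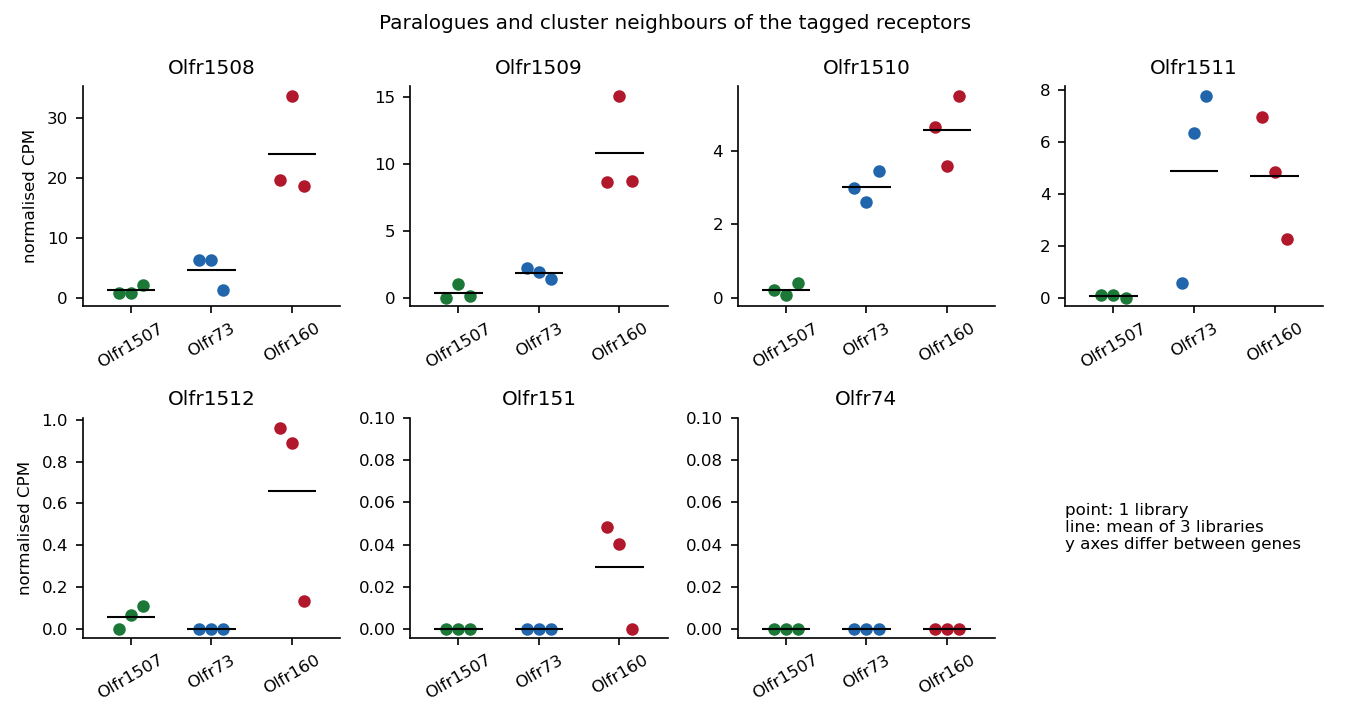
Normalised CPM of the 7 genes in each library (points) with the group mean (line, n = 3), on a y axis of its own for each gene. Olfr1508 to Olfr1511 have their lowest means in the Olfr1507 sort, Olfr151 reaches 0.0481 at most and Olfr74 is at 0 throughout.

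Per length, the order of the cluster genes was not an order by distance from Olfr1507. In the Olfr1507 libraries mean TPM values were 0.437 ± 0.688 TPM for Olfr1509, 0.323 ± 0.206 for Olfr1508, 0.317 ± 0.193 for Olfr1510, 0.163 ± 0.176 for Olfr1511 and 0.0533 ± 0.0503 for Olfr1512, beside 5027 ± 667 for Olfr1507 (SD, n = 3), and the neighbours in this order overlapped. In the Olfr73 libraries the order began with Olfr1511, at 9.57 ± 7.54 TPM, followed by Olfr1509 at 3.65 ± 1.29, Olfr1510 at 3.60 ± 0.232 and Olfr1508 at 2.34 ± 1.86, none of which was separated from its neighbour by more than the spread. In the Olfr160 libraries mean TPM was 18.4 ± 5.14 for Olfr1509, 9.44 ± 3.78 for Olfr1508, 8.15 ± 3.98 for Olfr1511, 5.20 ± 1.19 for Olfr1510 and 1.26 ± 0.924 for Olfr1512 (SD, n = 3), with Olfr1507 at 60.1 ± 13.7. Olfr1509 lay above Olfr1508 in every Olfr160 library. Olfr1508 and Olfr1511 did not differ beyond their spread, nor did Olfr1511 and Olfr1510, whereas Olfr1512 lay below each of the others in every Olfr160 library. Olfr1508 ranked below Olfr1509 in TPM and above it in counts in Olfr160, its longest transcript having 5791 bases, against 2525 for Olfr1509.

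**Figure D3:**
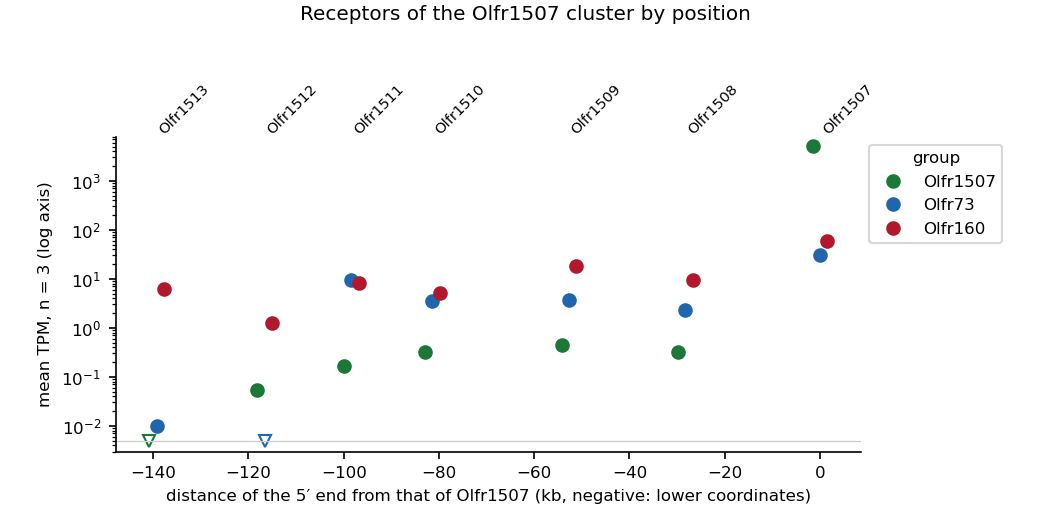
Mean TPM (log axis, n = 3) of the cluster receptors by distance of the 5′ end from that of Olfr1507, with genes listed at 0 drawn as open triangles on the grey line. The Olfr1507 sort is highest at Olfr1507, at 5027 TPM, and below 0.5 TPM at each of the neighbours.

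As a share of untagged receptor counts, the cluster overlapped between the sorts. Olfr1508 to Olfr1512 together held 0.633%, 0.425% and 1.0% of untagged receptor counts in the Olfr1507 libraries, 0.397%, 0.569% and 0.914% in the Olfr73 libraries, and 0.582%, 0.728% and 0.546% in the Olfr160 libraries. The groups overlapped, with means of 0.686% ± 0.291 in Olfr1507 libraries, 0.626% ± 0.263 in Olfr73 libraries and 0.619% ± 0.0967 in Olfr160 libraries (SD, n = 3 each). Without Olfr1508, a choice made after seeing the data, the means were 0.223%, 0.462% and 0.289%, lowest in Olfr1507, and the groups still overlapped. Over the same libraries the summed level of the 5 genes differed widely, at 1.97 ± 0.828 normalised CPM in Olfr1507, 14.4 ± 2.58 in Olfr73 and 44.7 ± 11.9 in Olfr160. Precision is limited in Olfr1507, where library 1 held only 21 counts on the 5 genes (95% Wilson interval of the share 0.414% to 0.966%).

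**Figure D4:**
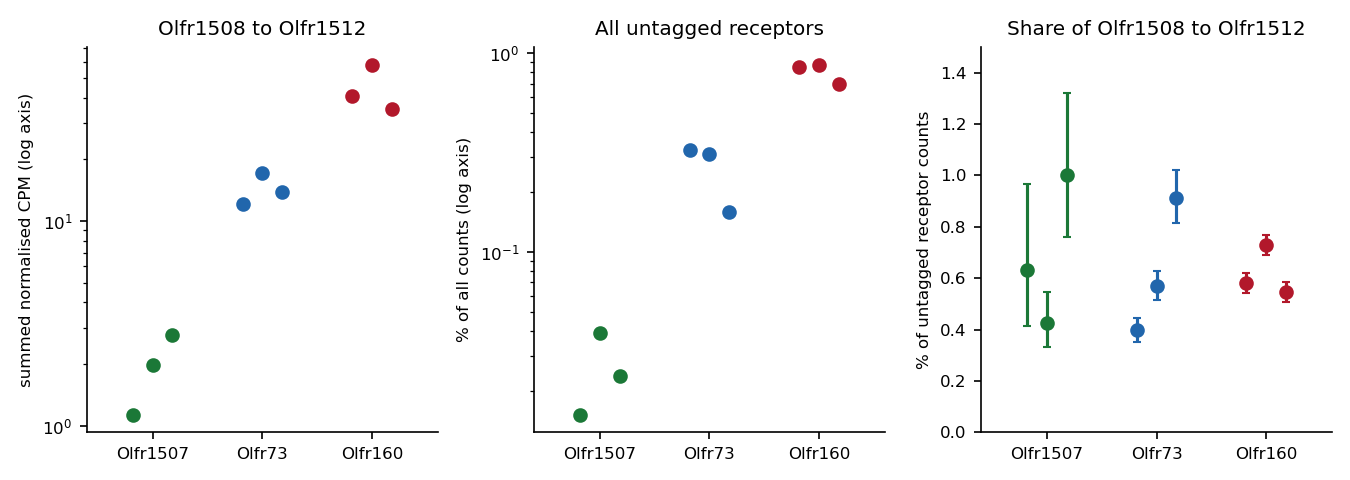
Left and middle, summed normalised CPM of Olfr1508 to Olfr1512 and the percentage of all counts on untagged receptors, on log axes, for each library; right, the share of untagged receptor counts on the 5 genes with 95% Wilson intervals, which cover counting error only. Both levels are lowest in Olfr1507 and highest in Olfr160, while the shares overlap.

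Scaling by untagged receptor counts in place of TMM set each member against the untagged receptor total. The median log2 fold change of the other receptors was then -1.69 in Olfr1507 against Olfr160, -1.27 against Olfr73, and -0.29 in Olfr73 against Olfr160. A test against 0 therefore cannot decide whether a member moved apart from most receptors. Between Olfr1507 and Olfr160, 84.9% of other receptors had a more negative value than Olfr1508, 84.1% than Olfr1510, 68.1% than Olfr1509 and 54.7% than Olfr1511. Against Olfr160, 0 of the 4 tested members passed in Olfr1507 by edgeR (0 also at an unadjusted p of 0.05), where 79.9% of all genes and 33.5% of other receptors passed in either direction, and their log2 fold changes were 0.46 for Olfr1508, -0.59 for Olfr1509, 0.37 for Olfr1510 and -1.45 for Olfr1511. For Olfr73 over Olfr160 again 0 passed (1 at an unadjusted p of 0.05), where 19.3% of other receptors and 60.7% of all genes passed in either direction, with values from -0.996 for Olfr1508 to 1.92 for Olfr1511 (edgeR adjusted p = 0.0537). For Olfr1507 over Olfr73, Olfr1508 was higher (1.46 with an SE of 0.69, edgeR adjusted p = 0.0483) and Olfr1511 lower (-3.37 with an SE of 1.12, edgeR adjusted p = 0.00403), where 8.19% of other receptors were called higher and 26.3% lower, beside 70.4% and 3.01% of all genes. The shares behind the first were 0.452%, 0.156% and 0.78% in Olfr1507 and 0.206%, 0.208% and 0.08% in Olfr73, which overlap. The direction for Olfr1508 in that comparison thus depended on the scaling, lower per TMM and higher per untagged receptor count. For Olfr1511 the shares were 0.0603%, 0.0213% and 0% in Olfr1507 and 0.0188%, 0.211% and 0.512% in Olfr73, which also overlap.

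The log2 fold changes of the tested members lay within those of the other receptors. With TMM, the median log2 fold change of the 684 other receptors was -5.94 in Olfr1507 over Olfr160, -4.06 in Olfr1507 over Olfr73, and -1.74 in Olfr73 over Olfr160, beside medians of the 4 members of -4.55, -2.97 and -1.49 and of all genes of -0.14, -0.15 and -0.01. For Olfr1507 over Olfr160, 79.7% of other receptors had a more negative value than Olfr1508, 78.7% than Olfr1510, 73.2% than Olfr1509 and 50.9% than Olfr1511. For Olfr1507 over Olfr73, 3 of the 4 members were lower, beside 38% of other receptors and 19.9% of all genes. For Olfr73 over Olfr160, only Olfr1508 was lower, beside 14.5% of other receptors and 10.5% of all genes. The comparisons share libraries, so they are not independent of each other.

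**Figure D5:**
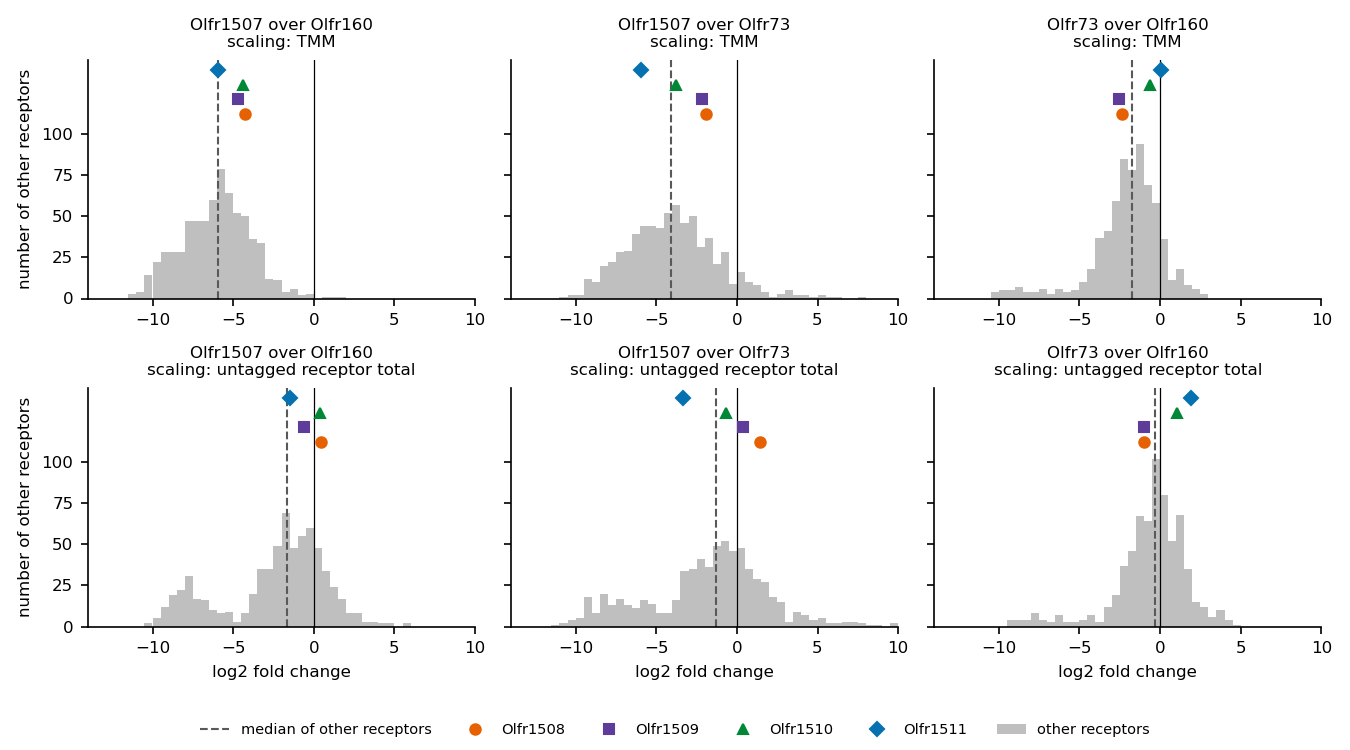
Histograms of the log2 fold changes of 684 other tested receptors in each comparison, with the 4 tested members as symbols above and the median of the other receptors as a dashed line; the upper row is scaled by TMM and the lower row by untagged receptor counts. The members lie within the range of the other receptors in every panel.

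Olfr151 (chr9:37729977-37731104) lies 14.85 kb from Olfr160 in the same cluster. It had 0 counts in every Olfr1507 and Olfr73 library, and 1, 1 and 0 in the Olfr160 libraries. In the Olfr160 libraries the pair held 2 counts on Olfr151 against 29164 on Olfr160, a share of 0.00686% (95% Wilson interval 0.00188% to 0.025%). The sort on Olfr160 fixes a low share there. In the other sorts Olfr160 itself had just 38 counts (Olfr1507) and 138 counts (Olfr73). The 2 counts are under the floor of 3, and no fold change is given. In the annotation Olfr151 is a polymorphic pseudogene, meaning that it is disrupted in the reference strain and intact in others, and the table has 1 transcript of 1128 bases for it. Of the 56 receptors of that class, 17 had 0 counts over all 9 libraries and 17 had at least 10, with a median of 2. The total of 2 counts for Olfr151 equals that median.

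Olfr74 (chr2:87973707-87974663) lies 63.04 kb from Olfr73 and had 0 counts in all 9 libraries. Against the 57092 counts of Olfr73 in its own sort, 0 counts allow a share of up to 0.00525% of the pair, taking 3 counts as the limit and counting error only. The sort on Olfr73 fixes a low share there. In the other sorts Olfr73 itself had just 78 counts (Olfr1507) and 52 counts (Olfr160). The model of Olfr74 in the table is a single exon of 957 bases with no untranslated part. Of 65 coding receptors with such models 35 (53.8%) had 0 counts in all libraries, against 32 of 1062 receptors with an untranslated part (3.01%). Among all 1408 Olfr genes, 278 had 0 counts. Whether the short model accounts for the 0 was not tested.

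Around each tagged receptor, the other receptor genes that passed the test with TMM scaling were lower in the first group of each comparison. These counts stand beside 77% of other receptors and 27.7% of all genes lower in Olfr1507 than in Olfr160, 38% and 19.9% lower in Olfr1507 than in Olfr73, and 14.5% and 10.5% lower in Olfr73 than in Olfr160. Within 500 kb of Olfr1507 there were 7 other Olfr genes, of which 6 were tested, and 6 were lower in Olfr1507 than in Olfr160, 4 than in Olfr73 and 2 in Olfr73 than in Olfr160. Those past the threshold in at least 2 comparisons were Olfr1508, Olfr1510, Olfr1511, Olfr1513 and Olfr221. Olfr1513, the gene after Olfr1512, stood at 0 in each Olfr1507 library, at 0, 0.0468 and 0 normalised CPM in Olfr73, and at 7.31, 1.09 and 15.5 in Olfr160, so it varied widely within Olfr160. Within 500 kb of Olfr73 there were 58 other receptors in the table, of which 20 were tested, with 14 lower in Olfr1507 than in Olfr160, 3 lower in Olfr1507 than in Olfr73 and 2 lower in Olfr73 than in Olfr160. Olfr1143, Olfr1167, Olfr1168, Olfr1170 and Olfr1178 passed in at least 2 of these. Within 500 kb of Olfr160, 5 of 22 were tested, of which Olfr145, Olfr876 and Olfr878 passed in at least 2 comparisons, with 4 lower in Olfr1507 than in Olfr160, 1 lower in Olfr1507 than in Olfr73 and 2 lower in Olfr73 than in Olfr160. Scaled by untagged receptor counts, the numbers lower in those same comparisons were 1, 1 and 1 around Olfr1507, 7, 5 and 4 around Olfr73, and 3, 1 and 1 around Olfr160. Beside these, 203, 180 and 94 of 684 other receptors and 631, 494 and 363 of 16399 genes were lower. With that scaling 1 gene around Olfr1507 and 1 around Olfr73 were higher in Olfr1507 than in Olfr73, and 1 around Olfr73 was higher in Olfr73 than in Olfr160. Of other receptors 56 were higher in the former comparison and 38 in the latter, and of all genes 11543 and 9598.

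The genes whose levels ran most closely with each member over the 9 libraries were a mixture of receptors and other genes. Across libraries, in log2(normalised CPM + 1), Olfr1508 was most like Slc9a3r1 (r = 0.993), a scaffold protein, and among receptors like Olfr281 (0.988) and Olfr868 (0.976). Olfr1509 was most like Nnt (0.989), a mitochondrial transhydrogenase, and Gpx6 (0.988), a glutathione peroxidase, and among receptors like Olfr1382 (0.983) and Olfr1347 (0.982). Olfr1510 was most like Lpp (0.981) and Pcdh17 (0.979), a protocadherin, and among receptors like Olfr191 (0.975) and Olfr140 (0.972). Olfr1511 was most like Gm49519 (0.967) and Olfr532 (0.966), and among receptors like Olfr532 and Olfr11 (0.944). The 9 libraries fall into 3 groups that also differ in untagged receptor content, so these correlations describe the libraries and were not tested.

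RefSeq promoter sequences, spanning 250 bases before to 50 after the start, were found for 6 of the 10 genes, namely Olfr1508, Olfr1509, Olfr1510, Olfr1511, Olfr160 and Olfr73. The RefSeq start of Olfr1508 lay 34 bases from the 5′ end of its GENCODE model. The starts of the other 5 lay 2562 to 7403 bases from that end of their models, so their windows do not cover it. Neither the longer Ebf-type palindrome nor its core CCCNNGGG, searched on both strands and overlapping each other, occurred in the 6 windows, and TAATTA occurred once, in that of Olfr1510. Over the promoters of all genes these words occurred in 0.904%, 13.7% and 5.29%, and over receptor promoters in 0.527%, 3.06% and 18.6%. A match, or its lack, describes only these letters in this window.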

How the data were processed

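Expected counts per gene (RSEM) and TPM were deposited by the authors as separate tables. Reads had been aligned with STAR 2.6.1 to mm10 and quantified with RSEM 1.3.1, per the submitters' processing notes. The release of the annotation is not given in the sources used here; 98.7% of the transcript identifiers were found in GENCODE M21, from which coordinates and sequences come. Columns were matched to groups by older receptor names, M72, Mor28 and MOR174-9, which RefSeq lists as synonyms.

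The expected counts, rounded, entered edgeR 4.0.16 under R 4.3.3 (filterByExpr by group, TMM, robust quasi-likelihood F test, all 9 libraries, adjusted p threshold 0.05). The 16399 genes that passed the filter were adjusted together. The SE is the size of the log2 fold change divided by the square root of F. Of the 7 members, 4 passed the filter, and they passed it through the groups where they are high. The fit was tested on simulated data. Alternatives were DESeq2 1.42.0, limma 3.58.1 (voom, and log2(TPM + 1) or log2(TPM + 0.1)), RLE, library size and untagged receptor scaling, other filters, a replicate block, the 6 libraries compared and leaving out each library.

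The members and lists were chosen with earlier results of these data known. Named genes are the members, the tagged receptors, the 2 genes and 2 receptors most like each member among genes with a mean of at least 1 CPM, and receptors within 500 kb that passed in 2 comparisons. Olfr1513 and Supt16 were given values after they were seen. Identity is of coding bases (global alignment, Biopython 1.88), as no protein table was used. Wilson intervals (95%) and the floor of 3 counts, which is 0.0828 to 0.174 CPM per library, cover counting error only, since PCR copies were not removed by molecular identifiers in any step named in the sources. Depth was 17212807 to 36230606 counts per library. Counts of libraries within a group differed by more than counting noise, and each library was counted as 1 replicate.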

Additional observations from a re-analysis of the deposited data

How the results depend on the processing

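Of 240 alternative values for the 4 tested members over the 3 comparisons, 192 kept direction and call, 23 lost the call, 10 gained it and 15 changed sign. With untagged receptor scaling 5 signs changed: Olfr1508 (0.46 for Olfr1507 over Olfr160 and 1.46 for Olfr1507 over Olfr73), Olfr1509 (0.38 for Olfr1507 over Olfr73) and Olfr1510 (0.37 for Olfr1507 over Olfr160 and 1.06 for Olfr73 over Olfr160), and 0 members were called in the comparisons with Olfr160. The other 10 were Olfr1511 for Olfr73 over Olfr160, a value near 0: -0.032 with RLE and with DESeq2, -0.077 with library size, -0.50 with voom, -0.18 and -0.36 on log2(TPM + 1) and log2(TPM + 0.1), -0.01 with the replicate block, and -0.22, -0.43 and -0.27 without Olfr73 library 2, Olfr73 library 3 or Olfr160 library 3 (range leaving out 1 library -0.435 to 0.59). Members called for Olfr1507 over Olfr73 were 1 with voom, and for Olfr73 over Olfr160 they were 2 without a filter, with DESeq2, voom, log2(TPM + 1) or the 6 libraries alone, and 0 with log2(TPM + 0.1). In the order Olfr1507 over Olfr160, Olfr1507 over Olfr73, Olfr73 over Olfr160, leaving out 1 library gave 4 to 4, 2 to 3 and 0 to 3 members, 6391 to 8890, 3658 to 5546 and 976 to 3062 genes, and 394 to 669, 137 to 325 and 37 to 157 other receptors. Other receptors called were 229 with untagged scaling for Olfr1507 over Olfr160; 64 with voom, 130 with log2(TPM + 1) and 155 with the 6 libraries for Olfr1507 over Olfr73; and 162 with DESeq2, 224 with voom, 269 with log2(TPM + 1) and 205 with log2(TPM + 0.1) for Olfr73 over Olfr160. Genes called with untagged scaling were 13102, 12037 and 9961, and 4468 with voom for Olfr73 over Olfr160. The cause of these changes was not tested.

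The difference in the cluster's share of untagged receptor counts, in percentage points, was 0.0673, 0.0596 and 0.00765 in the same order of comparisons. It was -0.0556 and -0.38 with TPM and -0.0652 and -0.238 without Olfr1508, an alternative chosen after seeing the data, for the first 2 comparisons, and 0.324 and 0.173 for the third. Leaving out 1 library gave -0.0896 to 0.198, -0.0972 to 0.203 and -0.136 to 0.122, so its direction is not settled by these libraries. The values below 0 were -0.0896 and -0.0972 without Olfr1507 library 3, -0.0552 without Olfr73 library 1, -0.136 without Olfr73 library 3, -0.0108 without Olfr160 library 1 and -0.0288 without Olfr160 library 3.

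With the replicate number as a block, members called were 4, 2 and 0. Beside them, 508, 203 and 94 of 684 other receptors and 7398, 4804 and 2485 of 16399 genes were called. The member calls lost were Olfr1508 for Olfr1507 over Olfr73 (edgeR adjusted p = 0.113) and for Olfr73 over Olfr160 (edgeR adjusted p = 0.0543). The labels do not say whether the numbers pair the libraries. Deviations of libraries with the same number correlated at -0.225 to 0.141, and those of libraries with different numbers at -0.139 to 0.166. With 3 libraries in each group these ranges cannot settle whether the libraries are paired. Under the floor of 3 counts over a group, as for Olfr151 and Olfr74, no direction was given.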

Other observations

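Among the genes that are not receptors within 500 kb of Olfr1507, 11 were tested. With TMM, 2 of them were higher and 2 lower in Olfr1507 than in Olfr160, beside 3399 and 4540 of 16399 genes. Against Olfr73, 1 was higher and 2 were lower in Olfr1507, beside 2379 and 3261 genes. For Olfr73 over Olfr160, 1 was higher and 1 lower, beside 1222 and 1714 genes. Supt16, a histone chaperone subunit of the FACT complex (chr14:52160414-52197416, with its 5′ end at -298.3 kb from that of Olfr1507), stood at 361.8, 344.5 and 361.8 normalised CPM in the Olfr1507 libraries, 49.4, 54.0 and 45.5 in the Olfr73 libraries, and 43.9, 42.6 and 46.6 in the Olfr160 libraries. The Olfr1507 libraries lay far above both other groups, which overlapped. Its log2 fold change was 3.00 for Olfr1507 over Olfr160 (with an SE of 0.10, edgeR adjusted p = 1.06e-06) and 2.84 for Olfr1507 over Olfr73 (with an SE of 0.10, edgeR adjusted p = 9.78e-07), the rank by p being 2 and 3 of 16399 genes. It did not pass for Olfr73 over Olfr160 (0.16 with an SE of 0.10, edgeR adjusted p = 0.265). It was named after its values were seen. It passed for both comparisons of Olfr1507 under every alternative that was run, with log2 fold changes of 2.53 to 7.75. These include untagged receptor scaling, where the median of all genes was itself 4.58 over Olfr160 and 2.91 over Olfr73. Leaving out 1 library gave 2.98 to 3.05 and 2.79 to 2.93. Counts of Supt16 were fractional in every library, such as 6710.59 in Olfr1507 library 1. Whether its reads were shared with other annotated genes was not tested. The receptors that lie between Supt16 and Olfr1507 were lower in Olfr1507 than in Olfr160 or too low to be tested.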
